A study of Mus musculus with 12 samples.

Results

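DC2.4 is an immortalised mouse dendritic cell line, wild type by its label. This comparison asked how its transcripts differed after exposure to extracellular vesicles of non-activated T cells (NTEV, 30 µg/mL, 3 libraries) and after phosphate-buffered saline (PBS, 3 libraries). All genes with enough counts were taken, which left 13261 of the 42687 gene identifiers in the table. The series holds 12 libraries in all. The other 6 are DC2.4 cells given 15 µg/mL of vesicles of activated T cells (ATEV, 3 libraries) or the same dose of ATEV pretreated with Baseline-ZERO DNase (3 libraries). The label adds that the dose corresponded to 5 µg/mL of vesicle DNA, without saying whether this held for NTEV alone or also for ATEV. Cells of every group were grown in RPMI with serum, treated after an overnight incubation, harvested the next day and reseeded, and the procedure was carried out 3 times. Whether that means 3 rounds on the same cells or 3 separate experiments is not said. The labels do not tie the libraries to separate cultures. The p-values below therefore measure the spread between these libraries, which may be technical.

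Extracellular vesicles are membrane-bound particles that cells release with protein, RNA and DNA on board, and dendritic cells take them up by endocytosis and phagocytosis. Dendritic cells read foreign or displaced material through Toll-like receptors, C-type lectins and cytosolic DNA sensors. Signals through NF-κB switch on inflammatory mediators together with the inhibitors that shut the pathway down again, such as Nfkbia. DNA sensed by cGAS and STING leads instead to interferons, whose target genes include the guanylate-binding proteins, the immunoproteasome and the peptide transporter for MHC class I. Hypoxia-inducible factors, which are destroyed when oxygen is plentiful, drive another programme that myeloid cells use for glycolysis.

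Library totals ran from 20413799 to 30383572 counts over the NTEV and PBS libraries. Replicates of 1 group differed by far more than sampling noise, with a chi-square of 15.98 to 42.3 per degree of freedom between PBS libraries and 43.7 to 130 between NTEV libraries. The first principal component of all 12 libraries took up 34.9% of the variance, and on it PBS samples sat at −41.8, −28.4 and −14.6. NTEV replicate 1 sat among them at −21.5, whereas NTEV replicates 2 and 3 sat at 41.7 and 15.0. Results are therefore given with and without that library. It was singled out from these same values as lying among PBS, and leaving out such a library tends to raise the number of calls. Calls gained only without it are thus given as values and not as support.

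In total 306 genes, or 2.31% of those tested, passed an adjusted p of 0.05 in edgeR's quasi-likelihood test over the 12 libraries. Of these, 225 (1.7%) were higher with NTEV and 81 (0.611%) were lower, and 115 and 54 of them differed by at least 2-fold. Without NTEV replicate 1 the test called 1685 of 13470 genes (1069 higher, 616 lower). Without NTEV replicate 2 or 3 it called 69 or 40, and without PBS replicate 1, 2 or 3 it called 113, 44 or 34. When the spread was estimated from the 6 compared libraries alone, 19 genes were called. Of the 225 genes called higher, NTEV replicate 1 was the NTEV library nearest to PBS for 184, and it was nearest for 48 of the 81 called lower. For all 225 genes called higher and all 81 called lower, no NTEV library overlapped the PBS libraries. Leaving out a library could therefore hardly reverse a direction. Every one of the 306 genes that was still tested kept its direction in each of these fits. A core of 28 genes (15 higher, 13 lower) was called in all 6 fits that left out 1 library.

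**Figure D1:**
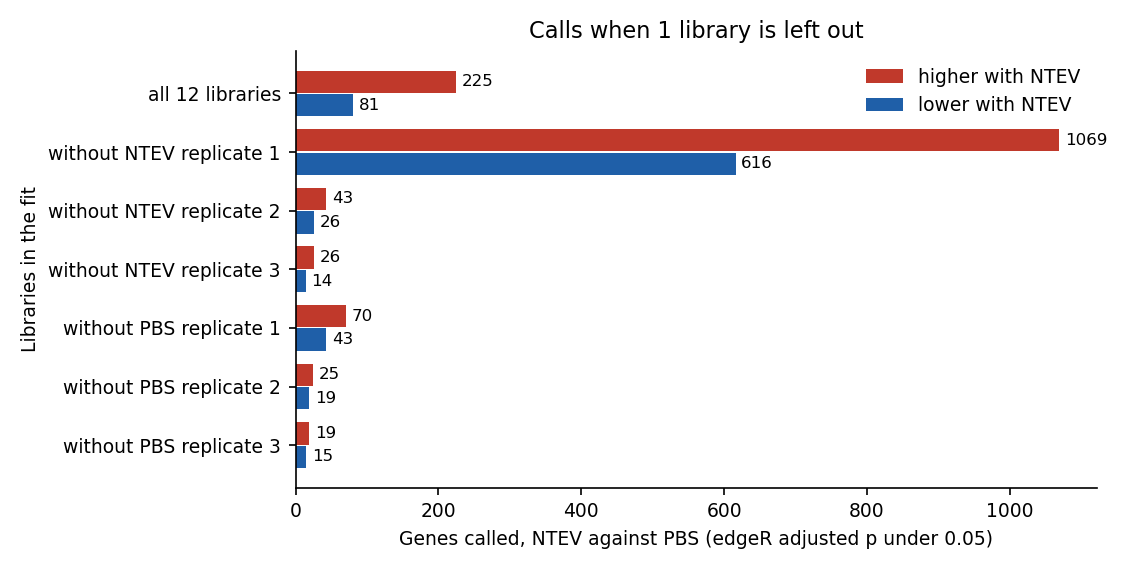
Number of genes called higher (red) and lower (blue) with NTEV than with PBS, on a linear axis, in the fit of all 12 libraries and in 6 fits that each left out 1 library. The count rises to 1069 higher and 616 lower without NTEV replicate 1 and falls in the other 5 fits, to 19 higher and 15 lower without PBS replicate 3.

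The labelled cell type was checked against marker genes, with levels as CPM, the counts of each library put on a common total after TMM scaling. Myeloid genes were abundant in the 6 libraries: Cd68 ran from 971 to 1292 CPM, Csf1r, the receptor for macrophage colony-stimulating factor, from 411 to 626, and Adgre1, which encodes F4/80, from 178 to 423. Of the defining dendritic cell genes, Itgax (12.7 to 48.1 CPM), Zbtb46 (3.83 to 8.89) and Batf3 (2.60 to 6.43) were present and the cytokine receptor Flt3 had no count. Genes that define T cells were at or near 0: Cd3e, Cd8a, Trbc1 and Trbc2 had no count in the 6 libraries, and 13 of the 29 T cell genes listed had none. The summed level of the T cell list was 66.6 to 109 CPM with PBS and 45.1 to 69.4 CPM with NTEV. Lck, a kinase of T cell receptor signalling, was at 6.85 to 10.8 CPM. Fibroblast collagens Col1a1, Col1a2 and Col3a1 stayed at or below 1.20 CPM.

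The largest rise belonged to Lcn2, which encodes lipocalin-2, a secreted protein that binds bacterial iron carriers. Its level was 1.04, 0.563 and 0.474 CPM in the PBS libraries and 26.6, 14.7 and 15.3 CPM in the NTEV libraries. The groups lay far apart, with a log2 fold change of 4.75 ± 0.41 (SE, n = 3 per group, edgeR adjusted p = 3.14e-04) or 26.8-fold. The call stood in all 6 fits with a library left out and with the 6 compared libraries alone (adjusted p = 0.0195). Slc39a4, which encodes the zinc importer ZIP4, had 2.16, 1.83 and 1.34 CPM with PBS and 7.94, 10.97 and 7.91 CPM with NTEV. Here too the groups were clearly apart, with a log2 fold change of 2.33 ± 0.25 (SE, edgeR adjusted p = 0.00189). Fas, the death receptor and a p53 target, had 3.16, 1.55 and 2.97 CPM with PBS against 7.45, 15.1 and 11.4 CPM with NTEV (log2 fold change 2.13, edgeR adjusted p = 0.00434).

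The other genes of the 28 that rose were varied in kind. C3, the central complement protein, had 51.2, 52.2 and 33.2 CPM with PBS and 104, 125 and 112 CPM with NTEV (log2 fold change 1.32 ± 0.17, edgeR adjusted p = 0.00296). Ebi3, the chain shared by interleukin-27 and interleukin-35, had 7.07, 7.04 and 7.37 CPM with PBS and 16.4, 25.0 and 18.1 CPM with NTEV. Every NTEV library was thus above every PBS library for both genes, and the log2 fold change of Ebi3 was 1.47. Ptges, which makes prostaglandin E2, rose by a log2 fold change of 1.85, and Lpcat2, an enzyme of platelet-activating factor synthesis, by 1.27. Hsd11b1, which regenerates active glucocorticoid, rose by 1.38, Ampd3, an AMP deaminase, by 1.34, and Procr, the receptor for protein C, by 1.47. The lysosomal collagenase cathepsin K (Ctsk) had 295, 222 and 216 CPM with PBS and 519, 506 and 578 CPM with NTEV. These values were well separated, at a log2 fold change of 1.13. The adaptor Bcar3 (1.79), the lipid phosphatase Plpp1 (1.49), Mfap3l (1.32) and the predicted gene Gm13571 (2.78) complete the 15, with log2 fold changes in parentheses. Apart from Lcn2, Slc39a4, Ctsk, C3 and Fas, these genes fall outside the rule for named genes and were chosen after their values were seen.

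**Figure D2:**
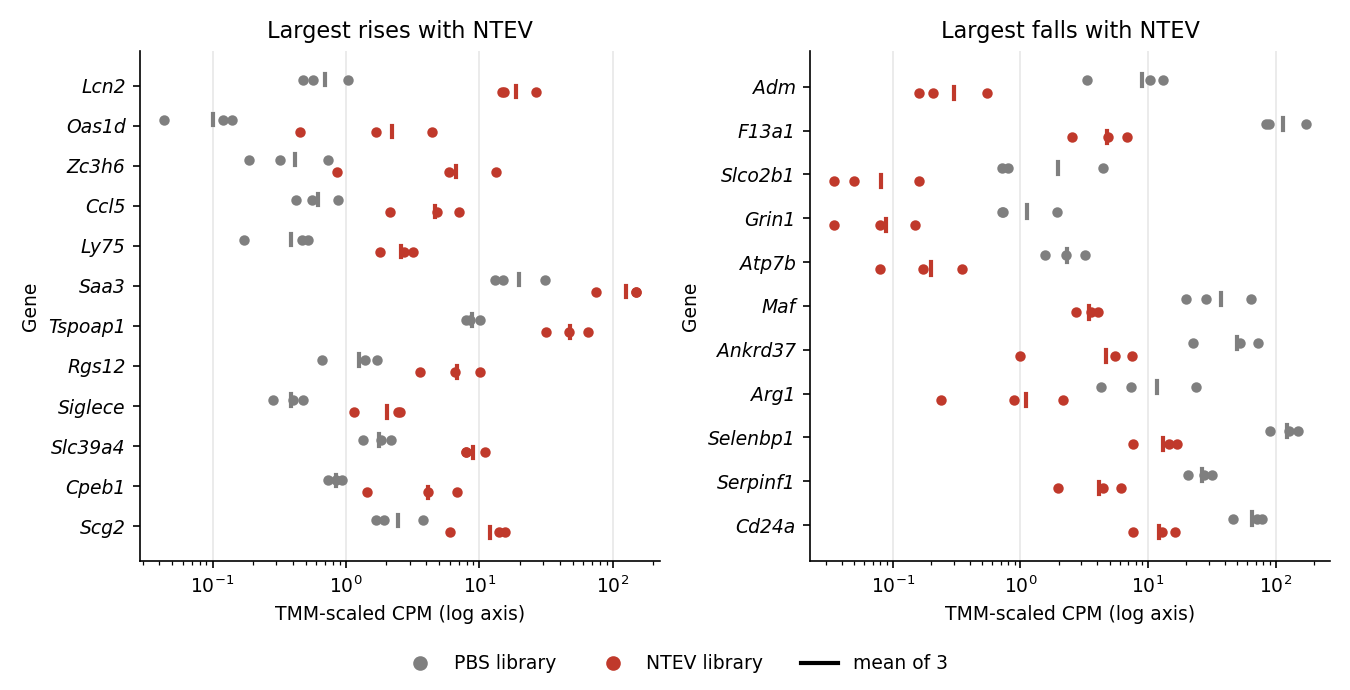
Levels in each PBS (grey) and NTEV (red) library of the 12 named genes with the largest rises and 11 of the 12 with the largest falls, as TMM-scaled CPM on log axes, with the mean of 3 libraries as a bar. The groups do not overlap in any of these genes, which their selection required. Oas1d and Zc3h6 spread widely among the NTEV libraries while Lcn2 and Slc39a4 are tight.

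Of the other large rises, Ccl5, a chemokine that draws T cells, had 0.879, 0.423 and 0.560 CPM with PBS and 6.97, 4.84 and 2.14 CPM with NTEV (log2 fold change 2.89, edgeR adjusted p = 0.0116). Saa3, an acute-phase protein of macrophages with close paralogs, had 31.0, 15.1 and 13.1 CPM with PBS and 149, 149 and 74.8 CPM with NTEV (2.66). Ly75, the endocytic receptor DEC-205, rose by 2.71 and Siglece, an inhibitory receptor for sialic acid, by 2.39, both from below 1 CPM. The NTEV libraries were above the PBS libraries throughout. Tspoap1 rose by 2.44, the G-protein regulator Rgs12 by 2.41, the RNA-binding Cpeb1 by 2.29 and secretogranin Scg2 by 2.27. Oas1d, a member of a family of near-identical genes whose counts are uncertain, ran from 0.449 to 4.44 CPM in the NTEV libraries (log2 fold change 4.37). Zc3h6 ran from 0.863 to 13.3 CPM (3.98). All 12 of the largest rises were called without NTEV replicate 1. Without NTEV replicate 2 or 3, 6 of the 12 were lost in each case, without PBS replicate 1, 5 were lost, and without PBS replicate 2 or 3, 9 and 10 were lost, with adjusted p up to 0.154. Oas1d, Zc3h6, Rgs12 and Cpeb1 were called, of the 6 fits with a library left out, only in the one without NTEV replicate 1. With the 6 compared libraries alone, Lcn2, Slc39a4 and Tspoap1 passed.

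Genes of inflammation and NF-κB signalling moved upward as a list. Of 53 listed, 40 were tested and 13 (32.5%) rose, against 1.7% of all tested genes, and none fell. The median log2 fold change of the 40 was 0.54, against −0.00 over all tested genes, and 33 of them were above 0. In 17 of the 40 every NTEV library was above every PBS library, against 12.8% of all tested genes. Beside Lcn2, Ccl5 and Saa3 the 13 included the feedback inhibitors of the pathway. Promoters of 2 of them are printed here because they hold a κB-like motif and belong to inhibitors of NF-κB signalling: Nfkbia encodes IκBα and Tnip1 a partner of the deubiquitinase A20. They are RefSeq sequences of GRCm38.p6, from 250 bases before the start of transcription to 50 after it, read 5′ to 3′ on the gene's strand. Nfkbia lies at chr12:55492598-55492897 and Tnip1 at chr11:54962891-54963190, both on the minus strand. Capitals mark matches to GGGANNNNCC on either strand.
Nfkbia promoter: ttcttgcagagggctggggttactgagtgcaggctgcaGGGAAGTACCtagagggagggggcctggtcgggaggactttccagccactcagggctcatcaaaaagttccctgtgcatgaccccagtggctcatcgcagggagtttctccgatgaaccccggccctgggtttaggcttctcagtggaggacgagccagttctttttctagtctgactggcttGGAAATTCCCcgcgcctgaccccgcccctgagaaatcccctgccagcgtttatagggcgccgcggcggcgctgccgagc
Tnip1 promoter: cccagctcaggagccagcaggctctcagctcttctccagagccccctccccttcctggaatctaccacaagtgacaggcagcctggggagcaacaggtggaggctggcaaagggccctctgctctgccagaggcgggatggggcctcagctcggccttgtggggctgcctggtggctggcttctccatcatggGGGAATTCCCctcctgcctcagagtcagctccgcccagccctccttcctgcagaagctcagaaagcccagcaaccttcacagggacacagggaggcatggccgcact

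The match in Tnip1 reads the same on both strands and is 1 site. A match is a run of letters and says nothing of binding. Of the 13 genes, 11 had a promoter in the table and 4 of these (36.4%: Nfkbia, Nfkb2, Bcl3 and Tnip1) held the motif. It occurred in 26.3% of the promoters of tested genes and in 20.5% of all genes' promoters. Of the 40 promoters found for the whole list, called or not, 20 (50%) held it, a larger share than among the called genes.

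Nfkbia itself had 21.97, 22.8 and 25.3 CPM with PBS and 38.6, 39.1 and 34.3 CPM with NTEV (log2 fold change 0.68 ± 0.13, edgeR adjusted p = 0.0228). Tnip1 had 71.8, 66.1 and 61.8 CPM with PBS and 115, 94.3 and 94.6 CPM with NTEV (0.60, edgeR adjusted p = 0.0200). Both sets of libraries were compact and did not overlap. Zc3h12a, which encodes the RNase Regnase-1 that degrades inflammatory transcripts, rose by 0.95, Nfkb2, a subunit precursor, by 0.83, and the IκB-like Bcl3 by 0.90. The adaptor Traf1 rose by 1.72 and the TNF-inducible Tnfaip2 by 0.73. Among surface and secreted products, Clec4e, the C-type lectin Mincle, had 131, 127 and 98.3 CPM with PBS and 234, 268 and 284 CPM with NTEV (1.14, edgeR adjusted p = 0.0169). Each NTEV library held more Clec4e than any PBS library by a wide margin. The scavenger chemokine Cxcl16 rose by 1.23. Il1a, a cytokine of the interleukin-1 family, was called from 6 counts in all with PBS and 44 with NTEV.

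Several well-known inflammatory genes were not called. Tnf had 11.1, 14.1 and 27.6 CPM with PBS and 21.7, 23.5 and 25.7 CPM with NTEV, and PBS replicate 3 lay above all NTEV libraries. Il6 had no count in the 6 libraries. Il1b had 2 counts with PBS and 8 with NTEV, too few to test (ratio 3.76, exact binomial 95% interval 0.749 to 36.3, counting error only). Irak3, a brake on Toll-like receptor signalling, was the 1 gene of 24 tested Toll-like receptor genes that passed, at a log2 fold change of 0.82. This is 4.17% of the list, against 2.31% of all tested genes. Irak3 was lost without NTEV replicate 2 (edgeR adjusted p = 0.0513), PBS replicate 2 (0.0741) or PBS replicate 3 (0.0848).

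The inflammatory calls leaned on the set of libraries. Without NTEV replicate 1, 15 genes of the list rose and 1 fell, beside 1069 and 616 of the 13470 genes tested in that fit. Il1a was then not tested and the other 12 calls stood. Without NTEV replicate 2 or 3, 2 and 3 of the 13 calls remained, without PBS replicate 1, 6 remained, and without PBS replicate 2 or 3 only Lcn2 remained, with adjusted p up to 0.194 for those lost. The median of the list stayed between 0.52 and 0.67 over these 6 fits. With the 6 compared libraries alone, Lcn2 and Clec4e passed.

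**Figure D3:**
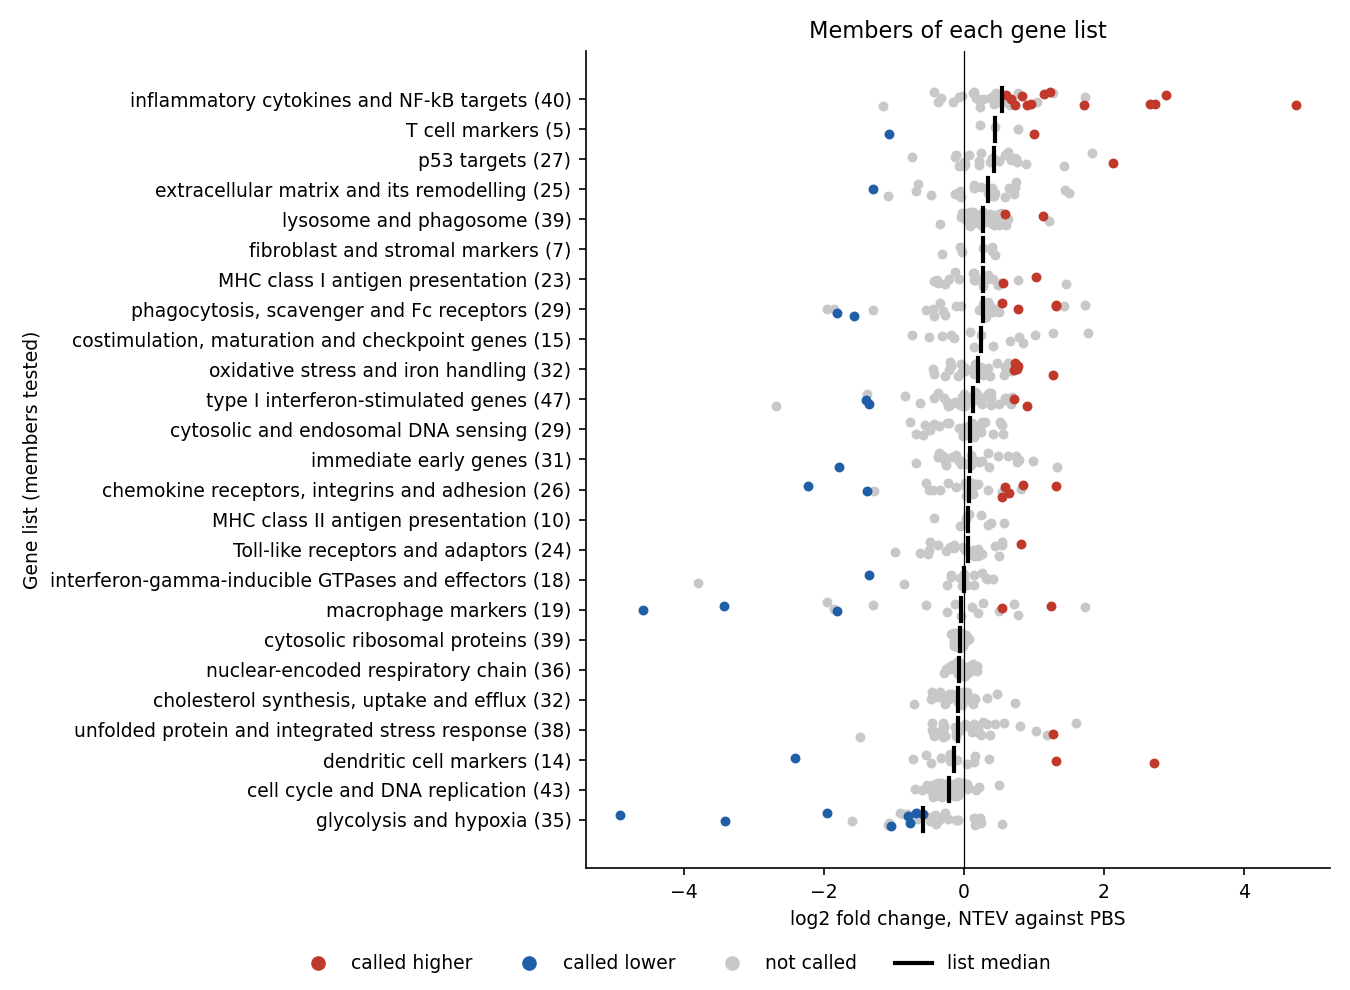
Log2 fold change of NTEV against PBS for every tested member of each gene list with at least 5 tested members, with red for called higher, blue for called lower, grey for not called and a black bar for the list median. Inflammatory and NF-κB genes have the highest median (0.54) and glycolysis and hypoxia genes the lowest (−0.59).

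Glycolysis and hypoxia genes moved the other way. Of 36 listed, 35 were tested, 8 (22.9%) fell, against 0.611% of all tested genes, and none rose. Their median log2 fold change was −0.59 and 5 of the 35 were above 0. In 19 of the 35 every NTEV library was below every PBS library, against 11.1% of all tested genes. The 8 were mostly targets of hypoxia-inducible factors, and the promoters of Ankrd37 and Bnip3 are printed because they belong to the 2 of the 8 that fell most among those with a hypoxia-response core in their promoter. They come from the same table and build, Ankrd37 at chr8:45999801-46000100 and Bnip3 at chr7:138909457-138909756, both on the minus strand. Capitals mark ACGTG on either strand. In Bnip3 a match on each strand overlaps in CACGTG, which is also an E-box.
Ankrd37 promoter: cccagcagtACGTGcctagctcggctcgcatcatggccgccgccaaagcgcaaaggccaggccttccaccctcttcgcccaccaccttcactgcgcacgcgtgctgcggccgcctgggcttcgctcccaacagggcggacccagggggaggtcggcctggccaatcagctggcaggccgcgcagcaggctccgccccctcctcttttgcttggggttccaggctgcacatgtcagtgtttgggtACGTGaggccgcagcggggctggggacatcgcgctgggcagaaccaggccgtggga
Bnip3 promoter: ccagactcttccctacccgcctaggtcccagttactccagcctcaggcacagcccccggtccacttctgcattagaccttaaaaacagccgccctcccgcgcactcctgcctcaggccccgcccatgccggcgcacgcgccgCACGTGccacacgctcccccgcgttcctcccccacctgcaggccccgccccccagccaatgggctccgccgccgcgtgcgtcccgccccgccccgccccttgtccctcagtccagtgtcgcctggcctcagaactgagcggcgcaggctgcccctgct

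Of the 8 genes, 7 had a promoter in the table and 4 of these (57.1%: Hk2, Bnip3, Egln1 and Ankrd37) held ACGTG. The motif occurred in 26.5% of the promoters of tested genes and in 19.7% of all genes' promoters. Of the 32 promoters found for the whole list, called or not, 17 (53.1%) held it, close to the share among the called genes.

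Adm, the vasodilator peptide adrenomedullin, had 3.36, 10.3 and 13.1 CPM with PBS and 0.207, 0.160 and 0.547 CPM with NTEV (log2 fold change −4.92 ± 0.80, edgeR adjusted p = 0.0116). It was the hypoxia gene called in all 6 fits with a library left out. Ankrd37 had 22.7, 52.4 and 73.0 CPM with PBS and 5.56, 1.00 and 7.46 CPM with NTEV (−3.41). Bnip3, a receptor for mitochondrial autophagy, had 241, 313 and 339 CPM with PBS and 106, 27.0 and 95.6 CPM with NTEV (−1.96). NTEV replicate 2 was the lowest library for both Ankrd37 and Bnip3. Egln1, whose product marks hypoxia-inducible factors for destruction, fell by 1.04 on the log2 scale, the mitophagy receptor Bnip3l by 0.69 and the histone demethylase Kdm3a by 0.59. Pdk1, which inhibits the oxidation of pyruvate, fell by 0.79 and Hk2, which starts glycolysis, by 0.77. Ldha, lactate dehydrogenase, was not called: its levels were 3577, 3323 and 2795 CPM with PBS and 3032, 946 and 2122 CPM with NTEV. NTEV replicate 1 lay inside the PBS range for Ldha.

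Without NTEV replicate 1, 16 genes of the hypoxia list fell, with a median of −0.68. That fit called 616 of 13470 tested genes lower. Without NTEV replicate 2 or 3, 4 and 2 of the 8 calls remained, without PBS replicate 1, 5 remained, and without PBS replicate 2 or 3 Adm alone, with adjusted p up to 0.116 for those lost. The median was −0.34 without NTEV replicate 2. With the 6 compared libraries alone Adm passed.

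Of 47 type I interferon-stimulated genes tested from 52 listed, 2 rose and 2 fell against PBS, and the median log2 fold change was 0.14. These 4 calls are 8.51% of the list, against 2.31% of all tested genes. Every NTEV library was above every PBS library in 11 of the 47 and below in 5, against 12.8% and 11.1% of all tested genes. Lgals3bp, a galectin ligand, had 17.4, 17.1 and 18.5 CPM with PBS and 26.2, 31.0 and 30.4 CPM with NTEV (0.72, edgeR adjusted p = 0.0105), and Lgals9, galectin-9, rose by 0.90. Samd9l, an antiviral inhibitor of translation, fell from 12.8, 15.4 and 20.3 CPM to 7.07, 5.57 and 5.72 CPM (−1.40, edgeR adjusted p = 0.00443). Of the 4, Samd9l was called in all 6 fits with a library left out. The exonuclease gene Isg20 fell by 1.36. Lgals3bp was lost without NTEV replicate 3 and PBS replicate 2, Lgals9 in 4 and Isg20 in 5 of the 6 fits, with adjusted p up to 0.147.

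Single interferon genes were low in both groups. Ifnb1, interferon-β, had no count in the 6 libraries. Isg15 had 1.64, 0.986 and 0.776 CPM with PBS and 1.69, 1.56 and 1.19 CPM with NTEV, and the groups overlapped. Irf7, the regulator that amplifies interferon production, had 3.92, 2.91 and 3.19 CPM with PBS and 3.55, 5.69 and 3.83 CPM with NTEV. The groups overlapped for Irf7 as well (log2 fold change 0.38, edgeR adjusted p = 0.431). Ifit1, Cxcl10, Ly6a and Zbp1 were below 1 CPM in all 6 libraries, and the log2 fold changes, from −0.42 to 0.37, came with edgeR adjusted p of 0.695 or more. Of 18 interferon-γ-inducible GTPases and effectors tested from 26 listed, Gbp7 fell by 1.36 on the log2 scale and none rose. This 1 call is 5.56% of the list, against 2.31% of all tested genes. Every NTEV library was below every PBS library in 2 of the 18 and above in none, against 11.1% and 12.8% of all tested genes. In 5 of the 18, both groups had 3 or fewer counts, too few to show a change. Gbp7 has close paralogs and was called, of the 6 fits with a library left out, in the one without NTEV replicate 1, with adjusted p up to 0.121 in the others. Gbp2 had 1.16, 0.610 and 0.646 CPM with PBS and 1.31, 0.681 and 0.895 CPM with NTEV.

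Of 23 MHC class I genes tested, 2 (8.70%, against 1.7% of all tested genes) rose: H2-D1 by 0.56 and H2-Q4 by 1.03 on the log2 scale, both members of a family in which reads can be shared between copies. Their calls stood without NTEV replicate 1 and were lost in the other 5 fits, with adjusted p up to 0.198. Tap1, the peptide transporter, had 29.6, 32.8 and 36.0 CPM with PBS and 39.0, 73.4 and 56.3 CPM with NTEV (0.78 ± 0.21, edgeR adjusted p = 0.0749). H2-K1 ran from 425 to 465 CPM with PBS and 515 to 576 CPM with NTEV (0.28, edgeR adjusted p = 0.206). The log2 fold change was 0.27 for B2m, the light chain of MHC class I, and 0.14 for the immunoproteasome subunit Psmb9, and both groups overlapped. No gene passed among 10 MHC class II and 15 costimulation genes. Every NTEV library was above every PBS library in 7 of the 23 MHC class I, 2 of the 10 class II and 6 of the 15 costimulation genes. The share over all tested genes was 12.8%. The reverse held for 1 MHC class I gene and for none of the other lists' genes. Cd40 had 10.3, 6.24 and 10.3 CPM with PBS and 13.9, 24.9 and 15.7 CPM with NTEV (1.02, edgeR adjusted p = 0.0603), and Cd80 had 8.67, 8.22 and 8.10 CPM against 9.73, 19.98 and 15.3 CPM (0.85, edgeR adjusted p = 0.0607). The NTEV libraries were above the PBS libraries for both. Cd274, which encodes PD-L1, overlapped between groups (0.79, edgeR adjusted p = 0.191), as did Cd86 (−0.31), the invariant chain Cd74 (−0.43) and Il15ra (0.09). Without NTEV replicate 1, Tap1 (edgeR adjusted p = 0.00773), Cd40 (0.0176), Cd80 (0.00422) and Cd274 (0.0216) passed and 8 MHC class I genes rose. That fit called 1069 of 13470 tested genes higher.

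No gene of 29 tested for DNA sensing passed. Cgas, the cytosolic DNA sensor, had 41.5, 38.7 and 44.4 CPM with PBS and 30.2, 32.0 and 26.9 CPM with NTEV. All NTEV libraries were thus below the PBS libraries, with a log2 fold change of −0.48 ± 0.16 (edgeR adjusted p = 0.135). Tmem173, which encodes STING, had 76.1, 74.2 and 73.4 CPM with PBS and 68.2, 54.6 and 51.5 CPM with NTEV (−0.36, edgeR adjusted p = 0.160), and it passed without NTEV replicate 1 (0.0338). In that fit 3 other genes of the list rose and Tmem173 was the 1 that fell, beside 1069 and 616 of 13470 tested genes. The median of the list was 0.09 over all libraries, with 16 of the 29 genes above 0.

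Iron and oxidative stress genes gave 5 rises among 32 tested (15.6%, against 1.7% of all tested genes) and no fall, with a median log2 fold change of 0.21. Fth1, the ferritin heavy chain, was the top gene of each NTEV library at 1.73% to 2.05% of counts. It was also the top gene of PBS replicates 1 and 2, at 1.15% and 1.11%. The same held for each ATEV library and for DNase-treated ATEV replicate 1. Fth1 had 12105, 11327 and 11135 CPM with PBS and 18169, 18573 and 20796 CPM with NTEV (0.74, edgeR adjusted p = 0.0298). Ferritin has many processed pseudogenes that could share its reads. Slc40a1, the iron exporter ferroportin, had 72.5, 80.7 and 95.1 CPM with PBS and 127, 125 and 171 CPM with NTEV (0.77). Slc11a2, the divalent metal importer DMT1, rose by 0.71, the cystine importer Slc7a11 by 1.27 and catalase (Cat) by 0.75. Storage, export and import genes of iron thus rose side by side. The copper exporter Atp7b had 2.28, 3.19 and 1.55 CPM with PBS and 0.173, 0.0801 and 0.348 CPM with NTEV (−3.57, edgeR adjusted p = 0.00296), called in all 6 fits with a library left out. The 5 iron and oxidative calls stood without NTEV replicate 1. Without NTEV replicate 2 or 3 or PBS replicate 2 or 3 none remained, and without PBS replicate 1 Slc11a2 remained, with adjusted p up to 0.165.

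Adhesion and uptake receptors were split. Among 26 chemokine receptor, integrin and adhesion genes, 7 (26.9%, against 2.31% of all tested genes) passed, and 5 integrin chains rose: Itgax (CD11c) by 1.32, Itgal by 0.85, Itga5 by 0.64, Itgb2 by 0.59 and Itgam (CD11b) by 0.54 on the log2 scale. Itgb2 encodes the β2 chain that pairs with the products of Itgax, Itgal and Itgam. Itgax had 12.7, 20.3 and 15.3 CPM with PBS and 25.6, 48.1 and 47.0 CPM with NTEV. Of 2 genes of the list that fell, the chemokine receptor Ccr1 fell by 1.39. Of 29 phagocytosis and Fc receptor genes, 6 (20.7%) passed. C3, Itgax, Itgam and the inhibitory Fc receptor Fcgr2b (0.77) rose. The β-glucan receptor Clec7a had 4.87, 5.35 and 6.64 CPM with PBS and 2.04, 2.20 and 1.39 CPM with NTEV (−1.57), and the mannose receptor Mrc1 fell by 1.81 from under 3 CPM. Cytip, which binds cytohesins and limits dendritic cell adhesion, had 58.2, 62.0 and 76.8 CPM with PBS and 24.4, 25.5 and 23.4 CPM with NTEV (−1.43, edgeR adjusted p = 0.00302). Cytip and C3 were called in all 6 fits with a library left out. Of the 7 adhesion calls, all stood without NTEV replicate 1, 1 without PBS replicate 1, Itgax alone without PBS replicate 2 and none without NTEV replicate 2 or 3 or PBS replicate 3, with adjusted p up to 0.225. Clec7a was lost without NTEV replicate 3 and PBS replicate 3, and Fcgr2b and Mrc1 in the 5 fits that kept NTEV replicate 1.

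Of 39 lysosome genes tested, 36 were above 0 with a median log2 fold change of 0.28, and in 15 of the 39 every NTEV library was above every PBS library, against 12.8% of all tested genes. Ctsk and cathepsin D passed (5.13% of the list, against 1.7%). Cathepsin D (Ctsd) had 964, 821 and 998 CPM with PBS and 1257, 1448 and 1471 CPM with NTEV (0.59, edgeR adjusted p = 0.0380), a call that stood, of the 6 fits, in the one without NTEV replicate 1 (adjusted p up to 0.183). Without NTEV replicate 1, 9 lysosomal genes rose, in a fit that called 1069 of 13470 tested genes higher. Of 27 p53 targets, Fas alone passed, 22 were above 0 and the median was 0.43. In 10 of the 27 every NTEV library was above every PBS library, and in none was every NTEV library below. Without NTEV replicate 1, 10 p53 targets rose, Fas among them, again beside 1069 of the 13470 genes.

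The largest falls included F13a1 and Maf of the macrophage list. Of the 19 genes of that list tested, 9 were above 0, and Itgam and Siglec1 rose. F13a1, the A chain of coagulation factor XIII and a gene of alternatively activated macrophages, had 83.5, 88.2 and 173 CPM with PBS and 6.83, 2.52 and 4.87 CPM with NTEV. No library of one group came near the other, and the fall was 24.1-fold (log2 fold change −4.59 ± 0.54, edgeR adjusted p = 0.00296). Maf, a transcription factor of tissue macrophages, had 28.4, 19.999 and 63.8 CPM with PBS and 4.07, 3.56 and 2.73 CPM with NTEV (−3.43, edgeR adjusted p = 0.00296). Cd24a, a surface glycoprotein used to mark dendritic cell subsets, had 46.5, 71.4 and 78.5 CPM with PBS and 16.2, 7.65 and 12.8 CPM with NTEV (−2.42, edgeR adjusted p = 0.00242). F13a1, Maf and Cd24a also passed with the 6 compared libraries alone (adjusted p = 0.0207, 0.0420 and 0.0420). Ighm, the IgM heavy chain, was not among the 12 largest falls. It had 43.6, 59.8 and 85.9 CPM with PBS and 18.9, 11.4 and 11.04 CPM with NTEV (−2.19). Of the 2 B cell genes tested it fell, while Cd22, an inhibitory B cell receptor, had 0.759, 0.892 and 0.819 CPM with PBS and 1.59, 2.72 and 3.23 CPM with NTEV and rose by 1.60 (edgeR adjusted p = 0.0269). The Cd22 call stood, of the 6 fits with a library left out, in the one without NTEV replicate 1 (adjusted p up to 0.121 in the others). The B cell gene Ms4a1 had no count in the 6 libraries. The summed B cell list ran from 44.7 to 87.3 CPM with PBS and 14.3 to 20.7 CPM with NTEV, most of it Ighm. In bulk RNA, fewer cells that express a gene and less RNA per cell cannot be told apart.

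Other genes fell in all 6 fits. Ocstamp, needed for fusion of osteoclasts, had 6.27, 8.36 and 7.67 CPM with PBS and 2.31, 0.841 and 2.59 CPM with NTEV (log2 fold change −1.96). All 3 NTEV libraries lay below the PBS libraries. The pseudokinase Trib2 (−1.55), the anti-angiogenic Serpinf1 (−2.67) and the predicted gene Gm5086 (−2.97) were among the others. Ocstamp, Trib2, Cytip and Gm5086 were named after their values were seen. Among large falls outside that core, Selenbp1 had 91.1, 150 and 126 CPM with PBS and 7.70, 14.5 and 17.0 CPM with NTEV (−3.23). Arg1, arginase, had 7.31, 4.27 and 23.8 CPM with PBS and 2.17, 0.240 and 0.895 CPM with NTEV (−3.37, edgeR adjusted p = 0.0443). Slco2b1, an organic anion transporter (−4.52), and Grin1, a subunit of the NMDA receptor (−3.68), fell to below 0.2 CPM. Arg1 and Grin1 were called, of the 6 fits with a library left out, only in the one without NTEV replicate 1. Of the 12 largest falls, all were called without NTEV replicate 1, 9 and 7 without NTEV replicate 2 or 3, and 10, 8 and 8 without PBS replicate 1, 2 or 3, with adjusted p up to 0.186.

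Marker lists of macrophages and dendritic cells did not move one way. Of 19 macrophage genes tested, Itgam and Siglec1 (1.24) rose and F13a1, Maf and Mrc1 fell. These calls are 26.3% of the list, against 2.31% of all tested genes. The summed macrophage list ran from 3890 to 4769 CPM with PBS and 5758 to 6206 CPM with NTEV. Of 14 dendritic cell genes, Itgax and Ly75 rose and Cd24a fell (21.4%), with sums of 1827 to 2024 CPM and 1669 to 1876 CPM. Adgre1 had 178, 194 and 248 CPM with PBS and 279, 423 and 317 CPM with NTEV (0.72, edgeR adjusted p = 0.0839). Of the 5 T cell genes tested, Gata3 rose by 1.00 and Cd28 fell by 1.07 (40%), neither of them specific to T cells. Siglec1 and Gata3 were called, of the 6 fits with a library left out, in the one without NTEV replicate 1, and Cd28 in 3 of them, with adjusted p up to 0.147. The part of these markers in the other results was not tested.

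No gene passed among 39 ribosomal protein genes (median −0.06), 36 respiratory chain genes (−0.08), 32 cholesterol genes (−0.08) or 43 cell cycle genes (−0.21). In 10 of the 43 cell cycle genes every NTEV library was below every PBS library, against 11.1% of all tested genes. Slc7a11 was the 1 gene to pass among 38 stress response genes (2.63%, against 2.31% of all tested genes). Egr3 fell by 1.78 as the 1 gene of 31 immediate early genes (3.23%). Mmp8, a neutrophil collagenase, fell by 1.30 as the 1 of 25 matrix genes (4%). Of the 6 fits with a library left out, Egr3 and Slc7a11 stood in the one without NTEV replicate 1 and Mmp8 also in the one without PBS replicate 1, with adjusted p up to 0.141.

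The ATEV libraries show where NTEV differed from vesicles of activated T cells, at unequal vesicle doses. In the direct comparison 124 genes (0.935%) were called, 8 (0.0603%) higher with NTEV and 116 (0.875%) lower. The 2 comparisons share the NTEV libraries, so their values are given side by side. Of 47 type I interferon-stimulated genes, 21 were lower with NTEV than with ATEV, with a median log2 difference of −0.96. Of 18 interferon-γ-inducible genes 15 were lower, and of 23 MHC class I genes 13. Among the 18 interferon-γ-inducible genes, 5 had 3 or fewer counts in both the NTEV and the PBS libraries. They passed the count filter only through the ATEV or DNase-treated ATEV libraries, which fixed their direction in advance. The 15 is therefore given as a value and not as support. Gbp2 had a mean of 39.6 CPM with ATEV (log2 difference −5.34, edgeR adjusted p = 5.14e-06) and 0.26 was its log2 fold change against PBS. Zbp1 (−5.85), Ly6a (−4.72), Psmb9 (−2.11), Irf7 (−1.70) and Tap1 (−1.36) were likewise lower with NTEV than ATEV in all 6 fits with a library left out. Across those fits 14 to 23 type I, 15 interferon-γ and 7 to 14 MHC class I genes were lower, and 70 to 302 genes were called, the highest without ATEV replicate 1 and the lowest without NTEV replicate 3. Lgals3bp stood higher with NTEV than PBS and lower than with ATEV (−1.46), and Samd9l was lower with NTEV than with either PBS or ATEV (−1.28).

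**Figure D4:**
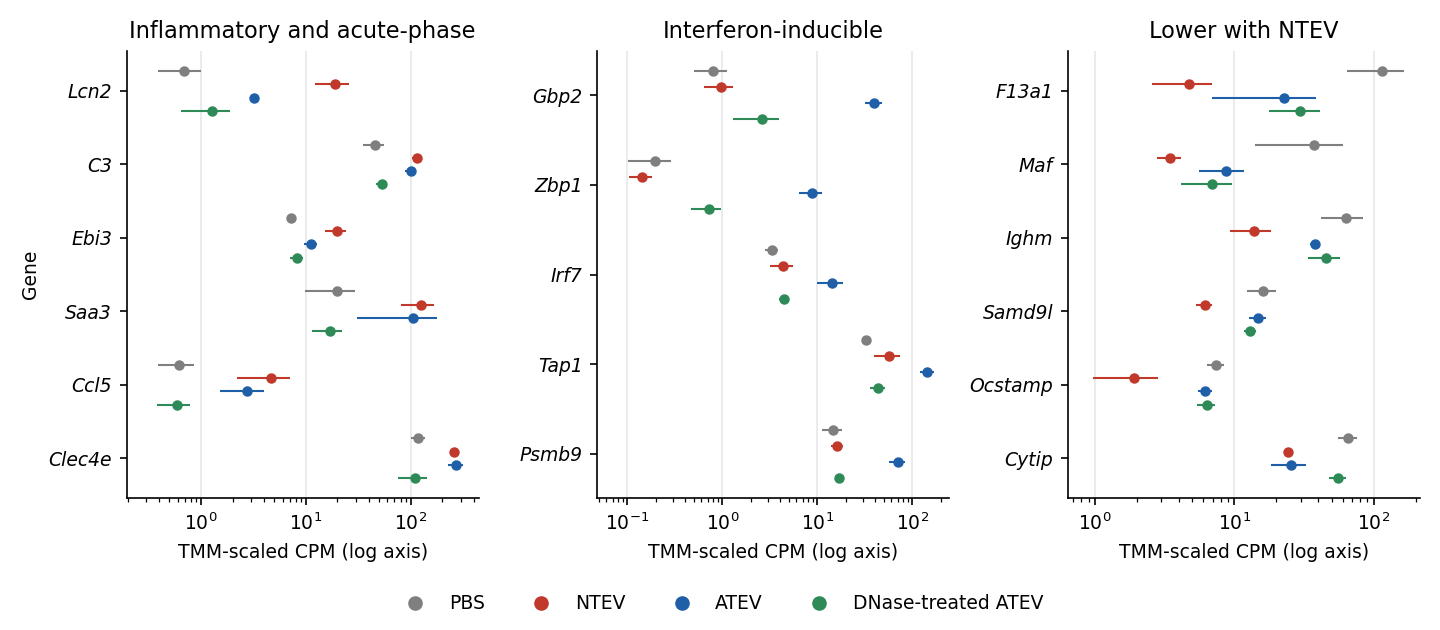
Mean level ± SD (n = 3 libraries) of selected genes with PBS (grey), NTEV (red), ATEV (blue) and DNase-treated ATEV (green), as TMM-scaled CPM on log axes. The interferon-inducible genes are highest with ATEV. With NTEV they lie nearer to PBS than to ATEV, though Tap1 stands above PBS. Lcn2 is highest with NTEV at a mean of 18.9 CPM.

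Of the 8 genes higher with NTEV than ATEV, Lcn2 averaged 18.9 ± 6.74 CPM with NTEV and 3.19 ± 0.177 CPM with ATEV (SD, n = 3; log2 difference 2.56, edgeR adjusted p = 0.00204). Slc39a4 differed by 1.44 and Slc6a12, a betaine and GABA transporter, by 1.14, and these 3 were called in all 6 fits with a library left out. The other five were Rapgef5 (0.88), Rtkn2 (1.04), Abhd8 (0.61), Dtx4 (0.56) and Ttc21b (0.55). Of these, Rapgef5 was called in 3 of the 6 fits, Abhd8 in 2 and the others in the one without ATEV replicate 1, with adjusted p up to 0.232. Against PBS, Slc6a12 (0.93) and Rapgef5 (0.74) rose as well. Slc6a12 stood there without NTEV replicate 1 or PBS replicate 1 and Rapgef5 without NTEV replicate 1, and both were lost in the other fits with a library left out, with adjusted p up to 0.161. These genes other than Lcn2 and Slc39a4 were named after their values were seen. Of 40 inflammatory genes tested, 1 was higher with NTEV than ATEV and 1 lower, against 0.0603% and 0.875% of all tested genes. Saa3 averaged 105 CPM with ATEV and Clec4e 273 CPM, with log2 differences of 0.24 and −0.06 (edgeR adjusted p = 0.844 and 0.921).

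Against DNase-treated ATEV, 90 genes (0.679%) were called, 62 (0.468%) higher with NTEV and 28 (0.211%) lower. This count was the least settled, at 4 without DNase-treated ATEV replicate 2, 8 without its replicate 3 and 321 without NTEV replicate 1. Without NTEV replicate 2 or 3 it was 22 or 16. The 4 calls that stood in all 6 such fits were 2 higher and 2 lower, and Lcn2 (log2 difference 3.88), Slc40a1 (1.51) and Gbp7 (−2.44) were among them. Slc40a1 averaged 49.5 CPM with DNase-treated ATEV, below its PBS libraries. Fas (2.39) and Slc39a4 (1.90) were called in 5 of the 6 fits, each lost without DNase-treated ATEV replicate 2 at an adjusted p of 0.0550.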

How the data were processed

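Raw read counts per gene were taken as deposited by the authors. Per the labels' protocols, RNA was extracted with RNeasy Plus and libraries were made with TruSeq stranded mRNA. Tools listed in the submitters' processing notes were TopHat2 2.0.11 and TopHat, beside Cufflinks 2.1.1, bcl2fastq 2.19 and build mm9. Counter, strand setting and annotation are not given in the sources used here. Overlapping and antisense genes may share reads. Symbols were matched for 42250 of 42687 identifiers (437 had none).

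Totals were 19392942 to 30383572 counts per library, which limits precision mainly for genes below 1 CPM. The 12 libraries were fitted together in edgeR 4.0.16 (R 4.3.3), with TMM scaling, filterByExpr by group (minimum count 10, minimum total 15), 1 mean per group and the quasi-likelihood test, with Benjamini-Hochberg adjustment over 13261 genes and a threshold of 0.05. "Rose", "fell" and "called" refer to that threshold. The script was tested on simulated data. Alternatives were DESeq2 1.42.0, its size factors in edgeR, upper-quartile scaling, limma-voom (limma 3.58.1), no count filter, the 6 compared libraries alone, the replicate number as a block, and leaving out each library. Without 1 library, the spread is pooled over all groups.

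Named genes were up to 12 called rises and 12 called falls by log2 fold change whose libraries did not overlap and whose higher group averaged 1 CPM or more, leaving out predicted genes, up to 4 called genes of each list by adjusted p, and a fixed panel of 28 genes. Genes named from the lists beyond these 4 and those called in every fit were chosen after their values were seen. The lists and members were chosen with earlier results of these data known. Some genes are not reported here.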

Additional observations from a re-analysis of the deposited data

How the results depend on the processing

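Against PBS, 306 genes were called. DESeq2 called 861, the fit with no filter on low counts 876 and the 6 compared libraries alone 19. Leaving out 1 library gave 34 to 1685. DESeq2 size factors, upper-quartile scaling and limma-voom gave 323, 298 and 209. The median log2 fold change of all genes moved by less than 0.1 under each scaling. Against ATEV, 124 genes became 373, 242 and 82 under the first 3 settings and 70 to 302 without 1 library. Against DNase-treated ATEV, 90 became 391, 319 and 2, and 4 to 321 without 1 library. With the replicate number as a block, the counts were 343, 135 and 41. Deviations of same-numbered PBS and NTEV libraries correlated at 0.519, 0.00484 and 0.00534 for replicates 1, 2 and 3. These values do not decide whether same-numbered samples share a culture or day, which the labels do not say. Library 1 of NTEV and PBS alone correlated best with its own number. Uncalled genes changed sign without 1 library: Ifit1 ran from −0.55 (without PBS replicate 3) to 0.27 (without PBS replicate 1), Il15ra from −0.0197 (without PBS replicate 1) to 0.22, Gbp2 from −0.0467 (without NTEV replicate 1) to 0.64 and Ly6a from −0.18 (without NTEV replicate 1) to 0.63. No named call reversed, but the libraries of the called genes did not overlap, so a reversal was hardly possible. The cause of these differences was not tested. Fits with fewer libraries also have fewer degrees of freedom, and the part this played was not tested either. Genes below 1 CPM rest on few counts.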

Other observations

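Beyond the lists, several called genes had roles in myeloid defence, and they were chosen after their values were seen. Acod1, which makes itaconate, had 70.6, 53.9 and 51.3 CPM with PBS and 238, 93.3 and 178 CPM with NTEV (log2 fold change 1.54, edgeR adjusted p = 0.0255). The kinase gene Src rose by 2.07. So did Gch1 (1.20), which opens the synthesis of tetrahydrobiopterin, and Ass1 (0.67), which recycles citrulline to arginine. Casp4, the caspase that senses cytosolic lipopolysaccharide, rose by 1.25, and the lipopolysaccharide-binding protein Lbp by 1.65. Pou2f2, the transcription factor Oct-2, had 17.7, 16.8 and 22.4 CPM with PBS and 43.3, 47.1 and 32.3 CPM with NTEV (1.11, edgeR adjusted p = 0.0120). All stood without NTEV replicate 1, and Pou2f2 was lost only without PBS replicate 2 (adjusted p = 0.0699). The others were lost in 3 to 5 of the 6 fits that left out a library, with adjusted p up to 0.128.

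Ligands and lymphoid regulators were among the genes that fell. Tnfsf13b, the B cell survival factor BAFF, had 14.3, 16.9 and 13.7 CPM with PBS and 10.7, 6.41 and 8.85 CPM with NTEV (log2 fold change −0.79, edgeR adjusted p = 0.0412). Tnfsf14, the ligand LIGHT, fell by 1.43, and the chemokines Pf4 and Cx3cl1 by 1.43 and 2.69, Cx3cl1 from below 1 CPM. Ikzf1, the transcription factor Ikaros, had 122, 115 and 109 CPM with PBS and 84.5, 67.5 and 72.8 CPM with NTEV (−0.62, edgeR adjusted p = 0.0229). Kmo, an enzyme of tryptophan breakdown, had 4.59, 3.47 and 4.65 CPM with PBS and 1.41, 0.360 and 0.796 CPM with NTEV (−2.28, edgeR adjusted p = 0.0131). Kmo was lost without NTEV replicate 3 or PBS replicate 3. The other 5 stood without NTEV replicate 1, and Pf4 also without PBS replicate 2, with adjusted p up to 0.166 elsewhere.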
